A study of Mus musculus with 10 samples.

Results

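Toll-like receptor (TLR) transcripts were followed in whole melanoma tumors through 10 genes, the receptors *Tlr1*, *Tlr2*, *Tlr4*, *Tlr5*, *Tlr6*, *Tlr7*, *Tlr8*, *Tlr9* and *Tlr13* and the adaptor *Myd88*. These are 10 of the 45706 genes of the deposited count table, found by their Ensembl identifiers through the GENCODE M21 annotation of GRCm38. Of the 10, 8 had enough counts to be tested, among 14550 genes tested in all. *Tlr8* and *Tlr9* did not, and their counts are given without a test.

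TLRs are receptors of the innate immune system that recognize molecules of microbes, and some released by damaged cells. TLR1, TLR2, TLR4, TLR5 and TLR6 sit at the cell surface, where TLR2 pairs with TLR1 or TLR6 to bind bacterial lipopeptides, TLR4 binds lipopolysaccharide and TLR5 binds flagellin. TLR7, TLR8, TLR9 and TLR13 signal from endosomes, where they sense RNA (TLR7 and TLR8, and TLR13 for bacterial ribosomal RNA) or unmethylated CpG DNA (TLR9). All of them signal through MyD88, which recruits IRAK kinases and leads to NF-kB and interferon regulatory factors. In tumors they are best known from macrophages, monocytes, dendritic cells and B cells.

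Tumors of mouse melanoma cells were collected on day 4 from C57BL/6 hosts that were 8 weeks old. Cyclooxygenases COX-1 and COX-2, encoded by *Ptgs1* and *Ptgs2*, form prostaglandins. They were intact in the parental cells (*Ptgs*+/+, 4 tumors, called COX-competent) and inactivated by CRISPR/Cas9 in the others (*Ptgs*-/-, called COX-deficient, 3 tumors). A further 3 tumors of *Ptgs*-/- cells grew in mice given an antibody to NK1.1 (200 µg) with an antibody to asialo GM1 (30 µg) on days 0 and 2, and are called NK cell-depleted. All hosts were wild type, so that host cells kept both genes, and all tumors derive from 1 melanoma line. Whether each tumor came from its own mouse is not stated, so p-values measure the spread between these libraries. Antibodies to asialo GM1 can also bind cells other than NK cells. COX-competent replicate 4 and COX-deficient replicate 3 carry a second experiment code in their labels, and the other 8 libraries the first.

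Libraries were made from transcript 3′ ends (QuantSeq) and held 8150556 to 12839174 counts, so that 3 counts, taken as the detection floor, came to 0.234 to 0.368 CPM, the count per 1000000 counts of the library. *Ptgs2* stood at 253 ± 109.8 CPM (SD, n = 4) in COX-competent tumors, at 43.0 ± 27.6 (SD, n = 3) in COX-deficient ones and at 44.8 ± 4.56 (SD, n = 3) with NK cells depleted. *Ptgs1* was 152 ± 17.5, 94.0 ± 15.0 and 96.5 ± 1.24 CPM in the same order. A 3′ tag need not lie in the edited part. *Ncr1*, which encodes the NK cell receptor NKp46, ranged from 7 to 12 counts with COX and from 20 to 77 without it, and had 0 in each of the 3 NK cell-depleted libraries. *Klrb1c*, which encodes NK1.1, was 1.98 ± 0.403, 12.2 ± 3.40 and 0.580 ± 0.382 CPM. Of 8 melanocytic markers, *Dct*, *Tyr*, *Tyrp1*, *Pmel* and *Mlana* were too low to test, with at most 8 counts in any library, while *Mitf*, *Sox10* and *S100b* were measured.

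Promoters are printed for the called genes that have an entry, *Tlr1*, *Tlr2* and *Tlr6*, to show which motifs each held, and for *Myd88*, the adaptor they share, which did not pass the test. RefSeq promoters of GRCm38.p6, each with 250 bases before and 50 after a transcription start, matched 8 of the 10 genes, all but *Tlr4* and *Tlr7*, and gave 2 starts for *Tlr1* and for *Tlr6*. Both strands were searched for a short interferon response element (GAAANNGAA), a STAT site (TTCNNNGAA), a PU.1 site (GAGGAAGT), a short NF-kB site (GGGANNTTC) and an AP-1 site (TGACTCA), of which capitals mark the matches. They are given 5′ to 3′ on the strand of the gene.

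*Tlr1*, first start (chromosome 5, 64933509-64933808, minus strand): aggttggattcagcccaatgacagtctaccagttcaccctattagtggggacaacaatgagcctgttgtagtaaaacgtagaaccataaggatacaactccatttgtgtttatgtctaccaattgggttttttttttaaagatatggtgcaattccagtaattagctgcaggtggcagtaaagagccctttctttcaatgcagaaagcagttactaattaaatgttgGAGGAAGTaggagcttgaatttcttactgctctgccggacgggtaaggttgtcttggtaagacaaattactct
*Tlr2* (chromosome 3, 83841559-83841858, minus strand): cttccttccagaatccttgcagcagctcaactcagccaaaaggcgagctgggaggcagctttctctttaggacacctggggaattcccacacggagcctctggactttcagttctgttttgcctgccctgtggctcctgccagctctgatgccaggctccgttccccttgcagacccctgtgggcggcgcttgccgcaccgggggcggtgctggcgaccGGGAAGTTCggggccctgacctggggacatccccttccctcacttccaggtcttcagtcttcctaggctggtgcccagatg
*Tlr6*, first start (chromosome 5, 64959117-64959416, minus strand): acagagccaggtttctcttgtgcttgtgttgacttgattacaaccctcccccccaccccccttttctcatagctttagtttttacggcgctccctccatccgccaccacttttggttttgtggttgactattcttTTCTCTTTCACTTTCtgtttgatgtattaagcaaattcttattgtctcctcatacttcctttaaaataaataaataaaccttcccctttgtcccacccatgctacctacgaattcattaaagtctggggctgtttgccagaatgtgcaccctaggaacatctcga
*Tlr6*, second start (chromosome 5, 64959999-64960298, minus strand): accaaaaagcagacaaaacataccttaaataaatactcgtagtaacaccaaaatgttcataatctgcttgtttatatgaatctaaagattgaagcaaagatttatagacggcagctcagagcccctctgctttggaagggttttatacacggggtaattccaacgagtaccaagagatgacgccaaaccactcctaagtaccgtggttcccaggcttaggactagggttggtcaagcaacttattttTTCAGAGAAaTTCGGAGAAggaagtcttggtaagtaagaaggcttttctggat
*Myd88* (chromosome 9, 119339969-119340268, minus strand): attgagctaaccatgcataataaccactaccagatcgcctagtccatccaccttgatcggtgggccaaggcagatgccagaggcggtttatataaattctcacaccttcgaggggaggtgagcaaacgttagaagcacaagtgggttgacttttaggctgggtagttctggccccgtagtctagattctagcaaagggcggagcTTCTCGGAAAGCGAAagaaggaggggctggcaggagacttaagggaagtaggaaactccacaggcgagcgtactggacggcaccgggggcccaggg

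The first *Tlr1* promoter held a PU.1 site, 23 bases before the start, and the second *Tlr1* promoter, not shown, a STAT site. PU.1 is a transcription factor of myeloid cells and B cells. The only *Tlr2* promoter held a short NF-kB site 31 bases before the start. The first *Tlr6* promoter held 2 overlapping interferon response elements on the opposite strand, and the second *Tlr6* promoter 2 STAT sites next to the start. In the *Myd88* promoter a STAT site and an interferon response element overlapped, 46 and 40 bases before the start. Among the other promoters, *Tlr8* held an interferon response element and a STAT site and *Tlr9* a PU.1 and an AP-1 site, while these letters were found in neither *Tlr5* nor *Tlr13*. Of all 32851 promoters in the table, 8.56% held the interferon response element, 8.3% the STAT site, 3.2% the PU.1 site, 3.94% the NF-kB site and 5.2% the AP-1 site. A match is a description of the letters and not a site shown to be bound. Only these letters were searched, so other forms of the same sites in the printed promoters are not marked.

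3′ counts do not grow with transcript length, so CPM levels are set side by side between genes here. How fully the transcripts of each gene were captured, mapped and counted can still differ between genes and was not measured. The order of genes is therefore an order of tags. In COX-competent tumors *Myd88* led with 85.6 ± 7.91 CPM (SD, n = 4), followed by *Tlr4* with 25.8 ± 5.10 and *Tlr13* with 19.0 ± 0.388. The libraries of these 3 genes did not overlap. *Tlr1* (6.46 ± 0.951 CPM), *Tlr6* (5.97 ± 0.339) and *Tlr2* (5.00 ± 1.03) came next, and their libraries overlapped. *Tlr7* (3.51 ± 0.618 CPM) and *Tlr5* (2.35 ± 0.657) were lower and also overlapped, and *Tlr8* stood at 0.554 ± 0.209 CPM. *Tlr9*, the sensor of CpG DNA, was at or under the floor in 9 of 10 libraries. In COX-deficient tumors *Tlr4* (26.5 ± 3.78 CPM, SD, n = 3), *Tlr13* (20.1 ± 3.42) and *Tlr1* (18.1 ± 3.02) led the receptors, and the libraries of each overlapped those of the next. With NK cells depleted, *Tlr4* (27.1 ± 4.18 CPM, SD, n = 3), *Tlr13* (19.1 ± 1.43), *Tlr1* (11.9 ± 1.79), *Tlr6* (10.4 ± 1.43) and *Tlr7* (7.15 ± 0.871) followed each other, and only *Tlr1* and *Tlr6* overlapped as neighbours among these.

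**Figure D1:**
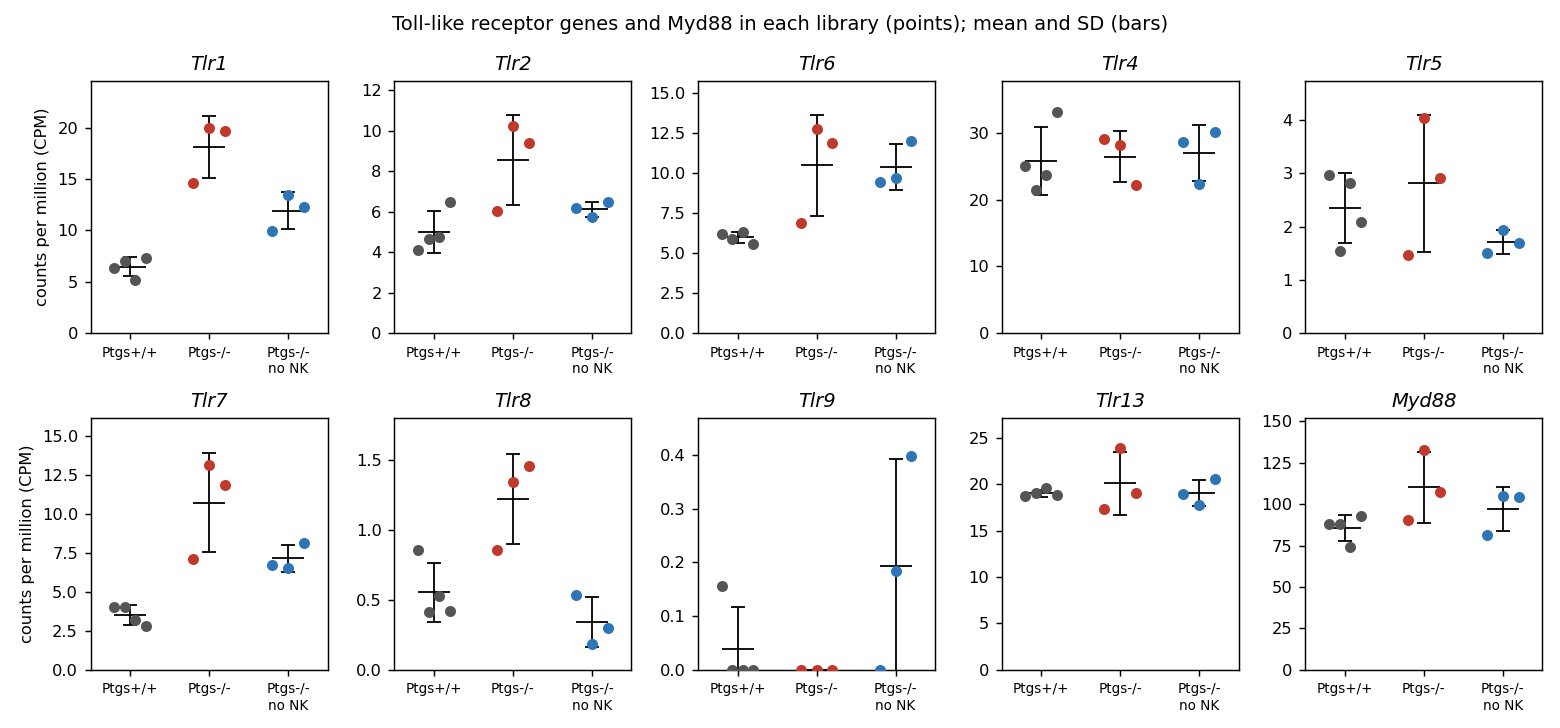
Each panel plots 1 gene, with its level in CPM (counts per 1000000 counts) on a linear axis from 0 and 1 point for each library; horizontal bars are group means and vertical bars the SD (n = 4, 3 and 3). *Tlr1* lies between 5.18 and 7.32 CPM in *Ptgs*+/+ tumors and between 14.6 and 19.97 in *Ptgs*-/- tumors, while *Tlr4* and *Tlr13* overlap in all 3 groups.

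COX-deficient tumors were compared with COX-competent tumors to ask how the loss of COX in the tumor cells bears on these genes. *Tlr1*, *Tlr7*, *Tlr6* and *Tlr2* rose in COX-deficient tumors, by 2.70-fold, 2.92-fold, 1.69-fold and 1.65-fold, and none of the 8 tested genes was called as lower. In whole tumors more cells of a type and more RNA per cell cannot be told apart. *Tlr4*, *Tlr5*, *Tlr13* and *Myd88* did not pass the test. A gene was called at an adjusted p at or under 0.05 in the quasi-likelihood test of edgeR, adjusted by Benjamini-Hochberg over all 14550 genes, which called 23.1% of them in either direction and 12.1% as higher. Against this, 4 of the 8 tested genes were called, all as higher, with a median log2 fold change of 0.52 over the 8 genes and -0.01 over all genes tested. Only *Tlr7* also had a log2 fold change of at least 1.5. For *Tlr1*, *Tlr6* and *Tlr7* each COX-deficient library was above each COX-competent library, as was the case for 18.1% of all genes tested.

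Among the receptors for lipopeptides, *Tlr1* (chromosome 5, 64924679-64933563) had 6.31, 7.01, 5.18 and 7.32 CPM in the 4 COX-competent libraries and 14.6, 19.97 and 19.7 in the 3 COX-deficient libraries. The groups were far apart and replicate 1 was the lowest of the COX-deficient libraries. Its log2 fold change was 1.43 (SE 0.18, adjusted p = 0.000354, edgeR). Fitted to the first experiment code alone it was 1.47 (adjusted p = 0.00488, edgeR). *Tlr6* (chromosome 5, 64952031-64960097), its neighbour on the same strand, had 6.15, 5.88, 6.32 and 5.55 CPM in COX-competent libraries and 6.87, 12.7 and 11.9 in COX-deficient libraries. Replicate 1 stood just above the COX-competent range and the other COX-deficient libraries well above it. The log2 fold change of *Tlr6* was 0.75 (SE 0.21, adjusted p = 0.0219, edgeR). The call of *Tlr6* was lost in the fit of the first code alone (log2 fold change 0.66, adjusted p = 0.120, edgeR) and without any of COX-competent replicates 2 and 4 or COX-deficient replicates 2 and 3, at most with an adjusted p of 0.0949 without COX-deficient replicate 2 (log2 fold change 0.60). *Tlr1* and *Tlr6* are close relatives, and 454 of the 2976 windows of 50 bases in the *Tlr1* transcript, 15.3%, were also in the *Tlr6* transcript. The shared stretch nearest to the 3′ ends lay 469 bases from the 3′ end of *Tlr1* and 1408 from that of *Tlr6*, so reads close to the 3′ ends fall outside it, and how reads that map to both were counted is not stated.

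*Tlr2* (chromosome 3, 83836272-83841767), the partner of both, had 4.13, 4.64, 4.74 and 6.49 CPM in COX-competent libraries and 6.01, 10.2 and 9.39 in COX-deficient libraries. The groups overlapped, since COX-competent replicate 4 exceeded COX-deficient replicate 1. Its log2 fold change was 0.73 (SE 0.21, adjusted p = 0.0307, edgeR). The call of *Tlr2* was lost in the fit of the first code alone (log2 fold change 0.84, adjusted p = 0.0556, edgeR), in a fit of these groups alone (0.74, adjusted p = 0.0628) and without any of COX-competent replicates 1 and 2 or COX-deficient replicates 2 and 3, at most with an adjusted p of 0.133 without COX-deficient replicate 2 (log2 fold change 0.58).

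Among the endosomal receptors, *Tlr7* (chromosome X, 167304929-167330558), a sensor of single-stranded RNA, had 4.05, 4.02, 3.16 and 2.82 CPM in COX-competent libraries and 7.12, 13.1 and 11.9 in COX-deficient libraries. The groups did not overlap, with replicate 1 again the lowest COX-deficient library. Its log2 fold change was 1.54 (SE 0.23, adjusted p = 0.000953, edgeR), and 1.42 in the fit of the first code alone (adjusted p = 0.0126). *Tlr1* and *Tlr7* were called in each of the 10 fits that left out 1 library and in each of the 10 other fits. *Tlr8* (chromosome X, 167242696-167264329), which lies beside *Tlr7* on the same strand, had 11, 4, 6 and 4 counts in COX-competent libraries and 7, 13 and 16 in COX-deficient libraries, too few for a test. *Tlr13* (chromosome X, 106143204-106160493) had 18.7, 19.1, 19.6 and 18.8 CPM in COX-competent libraries and 17.3, 23.9 and 19.1 in COX-deficient libraries. The *Tlr13* groups overlapped, with a log2 fold change of 0.02 (SE 0.13, adjusted p = 0.936, edgeR). *Tlr9* (chromosome 9, 106222598-106226883) had 2, 0, 0 and 0 counts in COX-competent libraries and 0 in each COX-deficient library.

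*Tlr4* (chromosome 4, 66827584-66930284) had 25.1, 21.4, 23.7 and 33.2 CPM in COX-competent libraries and 29.1, 28.2 and 22.2 in COX-deficient libraries. The groups overlapped, and the log2 fold change was -0.02 (SE 0.17, adjusted p = 0.948, edgeR), with a positive sign in 4 of 10 other fits, among them scaling by library size alone. *Tlr5* (chromosome 1, 182954788-182976044), the flagellin receptor, had 2.96, 1.55, 2.81 and 2.09 CPM in COX-competent libraries and 1.47, 4.03 and 2.92 in COX-deficient libraries. The lowest and the highest of these 7 values both came from COX-deficient tumors, and the log2 fold change was 0.20 (SE 0.34, adjusted p = 0.716, edgeR). *Myd88* (chromosome 9, 119335934-119341411) had 87.8, 87.9, 74.3 and 92.6 CPM in COX-competent libraries and 90.5, 133 and 107 in COX-deficient libraries. COX-deficient replicate 1 lay within the COX-competent range and the other COX-deficient libraries above it, and the log2 fold change was 0.31 (SE 0.14, adjusted p = 0.146, edgeR). In the annotation *Myd88* lies within *Slc22a14* on the same strand and shares 1736 bases with *Acaa1a* on the other, so its reads could be split or dropped depending on how overlaps and strand were counted, which is not stated. Of the 9 genes with more than 3 counts in each COX-deficient library, 8 were lowest in replicate 1, all but *Tlr4*. The share of all genes that were lowest in this library was not computed, so the count is not shown to be particular to these genes.

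**Figure D2:**
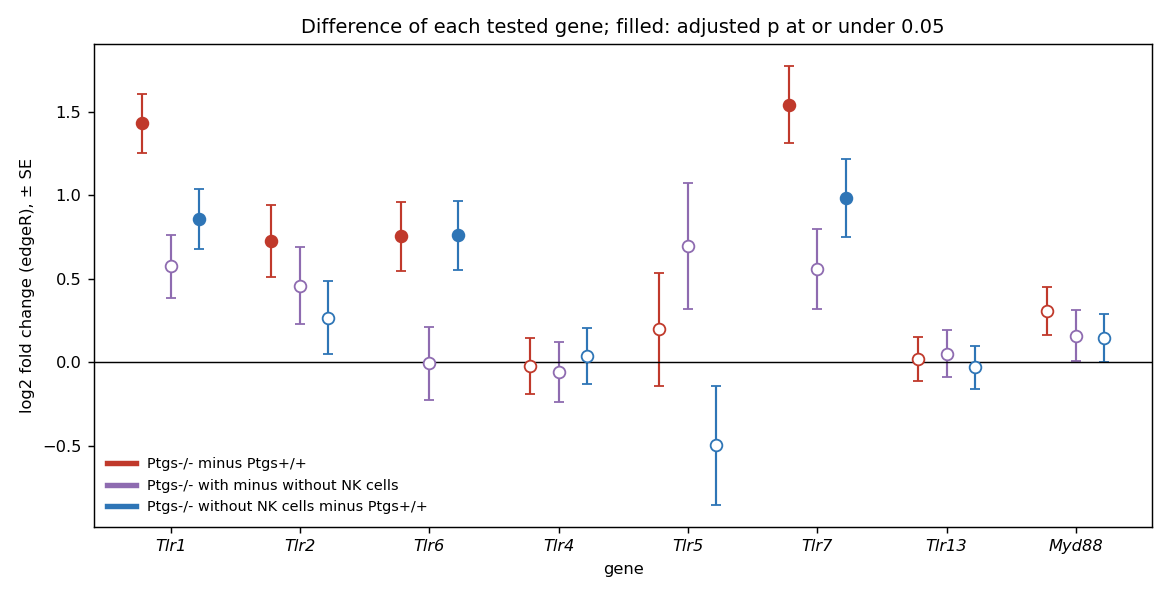
Log2 fold changes (points) and their SE (bars) from edgeR are plotted for the 8 tested genes in the 3 comparisons, as named in the legend; filled points passed an adjusted p of 0.05. In *Ptgs*-/- minus *Ptgs*+/+ tumors *Tlr7* (1.54) and *Tlr1* (1.43) stand highest, *Tlr4*, *Tlr13* and, in the comparison by NK cells, *Tlr6* lie close to 0, and no point of the comparison with minus without NK cells is filled.

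The make-up of the receptors is described by the share of each gene in their sum. The 9 TLR genes summed to 68.8 ± 5.57 CPM (SD, n = 4) with COX, 98.4 ± 15.1 (SD, n = 3) without it and 83.9 ± 7.35 (SD, n = 3) with NK cells depleted. *Tlr1* made up 9.39% ± 1.27 of this sum in COX-competent tumors, 18.4% ± 1.42 in COX-deficient tumors and 14.3% ± 2.70 with NK cells depleted. *Tlr7* made up 5.17% ± 1.18, 10.7% ± 1.90 and 8.498% ± 0.317 in the same order. For both genes the shares in COX-competent libraries were below those in each COX-deficient library. *Tlr4*, the receptor with the most tags, went from 37.3% ± 4.17 of the sum in COX-competent tumors to 27.4% ± 6.58 in COX-deficient tumors and 32.2% ± 3.19 with NK cells depleted, and these shares overlapped between groups. *Tlr13* made up 24.6% to 29.8% of the sum in COX-competent libraries, 19.4% to 21.04% in COX-deficient libraries and 22.3% to 23.1% with NK cells depleted, with no overlap between groups. Shares of 1 sum are not independent of each other, and they were not tested.

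**Figure D3:**
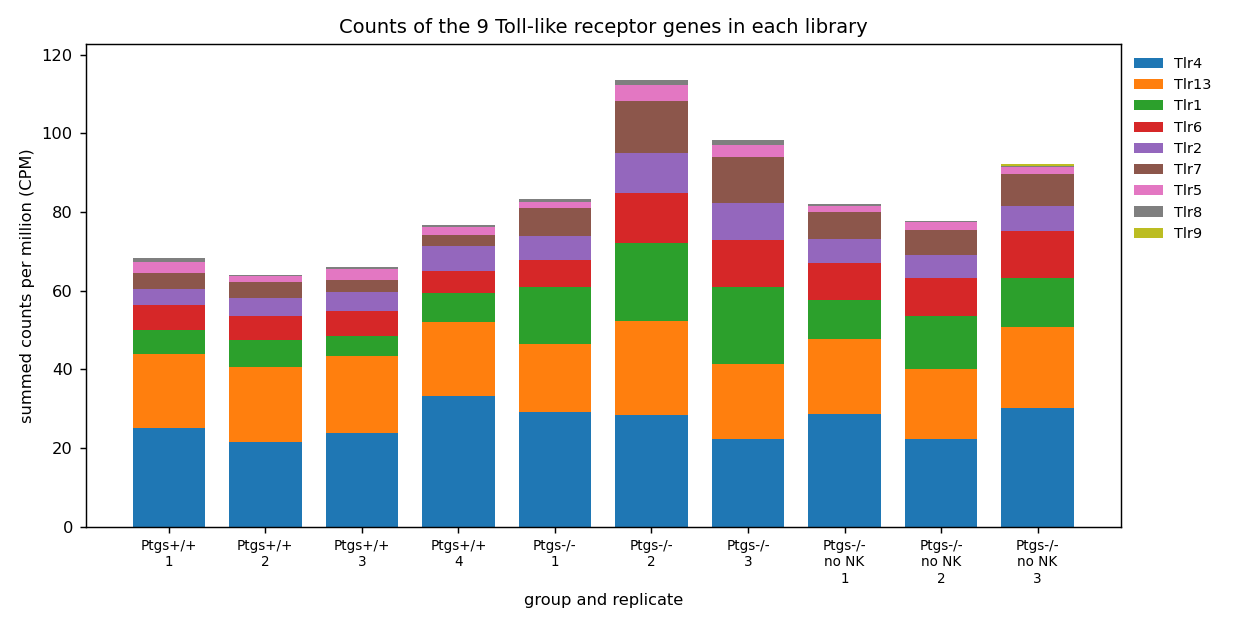
Stacked bars give the level of each of the 9 TLR genes in each of the 10 libraries, in summed CPM (counts per 1000000 counts) on an axis from 0. The bars of *Ptgs*+/+ libraries reach 64.0 to 76.7 CPM and those of *Ptgs*-/- libraries 83.3 to 113.6, while the *Tlr4* and *Tlr13* segments at the base stay of similar height.

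The comparison of COX-deficient tumors with and without NK cells asks which genes depend on the presence of NK cells. None of the 8 tested genes passed, in a comparison in which 1.44% of all genes did. The estimates were positive for 6 of 8 genes, with a median log2 fold change of 0.31 over the 8 genes and -0.01 over all genes tested. An unadjusted p under 0.05 (edgeR) was found for 2 genes, *Tlr1* and *Tlr7*. The shares of all genes with a positive estimate or with such a p were not computed, so no tendency is drawn from these counts. DESeq2, limma voom and edgeR's likelihood ratio test called 0 of the 8 as well. *Tlr1* had 9.95, 13.5 and 12.3 CPM in NK cell-depleted libraries, each below each of the 14.6 to 19.97 CPM with NK cells, with a log2 fold change of 0.57 (SE 0.19, adjusted p = 0.241, edgeR). It was the only tested gene whose libraries were all higher with NK cells, as 10.4% of all genes tested were. *Tlr7* had 6.74, 6.55 and 8.14 CPM in NK cell-depleted libraries, which overlapped the 7.12 CPM of COX-deficient replicate 1, and its log2 fold change was 0.56 (SE 0.24, adjusted p = 0.412, edgeR). Without COX-deficient replicate 1 the adjusted p was 0.0915 for *Tlr1* and 0.0919 for *Tlr7* (edgeR).

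The remaining genes did not pass either, and their libraries overlapped between the groups or held too few counts to test. *Tlr6* had 9.42, 9.69 and 12.02 CPM in NK cell-depleted libraries, within the 6.87 to 12.7 CPM of COX-deficient libraries, with a log2 fold change of -0.01 (SE 0.22, adjusted p = 0.993, edgeR). *Tlr2* had 6.21, 5.72 and 6.46 CPM, with a log2 fold change of 0.46 (SE 0.23, adjusted p = 0.506, edgeR). *Tlr8* had 5, 2 and 3 counts in NK cell-depleted libraries against 7, 13 and 16 with NK cells, and *Tlr9* had 0, 2 and 4 counts against 0 in each. For *Tlr5* the values without NK cells were 1.498, 1.94 and 1.69 CPM and overlapped those of COX-deficient libraries (log2 fold change 0.70, SE 0.38, adjusted p = 0.545, edgeR). *Tlr4* (28.7, 22.3 and 30.2 CPM), *Tlr13* (18.9, 17.7 and 20.6) and *Myd88* (81.5, 105 and 104) overlapped as well, with log2 fold changes of -0.06, 0.05 and 0.16 and adjusted p-values of 0.930, 0.920 and 0.752 from edgeR.

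COX-deficient tumors of NK cell-depleted mice were then set against COX-competent tumors, both groups having been used above, so the 3 comparisons are not independent. *Tlr1*, *Tlr7* and *Tlr6* rose in these tumors too, by 1.81-fold, 1.98-fold and 1.69-fold. These were 3 of 8 genes, all higher, where 12.5% of all genes tested were called in either direction and 6.63% as higher, and for these 3 genes the libraries did not overlap, as for 15.1% of all genes. The log2 fold changes were 0.86 for *Tlr1* (SE 0.18, adjusted p = 0.00980), 0.98 for *Tlr7* (SE 0.24, adjusted p = 0.0189) and 0.76 for *Tlr6* (SE 0.21, adjusted p = 0.0334, all edgeR). These calls changed with the libraries used. In the fit of the first code alone only *Tlr1* was called (adjusted p = 0.0245, edgeR), with 0.0606 for *Tlr7* (log2 fold change 0.90) and 0.0837 for *Tlr6* (0.73). *Tlr1* missed the threshold without NK cell-depleted replicate 2 (adjusted p = 0.0510, edgeR), *Tlr7* without NK cell-depleted replicates 1 or 3 (at most 0.0823) and *Tlr6* in 6 of the 10 fits that each dropped a library, with 0.136 when NK cell-depleted replicate 3 was dropped, and in a fit with the code as a term (log2 fold change 0.77, adjusted p = 0.0536). *Tlr2* (log2 fold change 0.27), *Myd88* (0.15), *Tlr4* (0.04), *Tlr13* (-0.03) and *Tlr5* (-0.50) had adjusted p-values of 0.414 to 0.920 in edgeR.

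The TLR genes outside the members were *Tlr3*, *Tlr11* and *Tlr12*. *Tlr12*, which with *Tlr11* senses a profilin of parasites, had 27, 38, 44 and 20 counts with COX, 58, 87 and 154 without it and 34, 81 and 39 with NK cells depleted. It rose in COX-deficient against COX-competent tumors with a log2 fold change of 1.69 (adjusted p = 0.00516, edgeR; 0.0522 for the first code alone) and did not pass in the other comparisons. *Tlr11* had 0, 1, 1 and 3 counts with COX, 3, 11 and 12 without it and 6, 8 and 11 with NK cells depleted. It was called as higher than in COX-competent tumors in both (adjusted p = 0.0146 and 0.0275, edgeR), with all COX-competent libraries at or under the floor, so no fold is given. The call was lost in 2 of 10 fits that left out a library in the first comparison (at most 0.0597, without COX-deficient replicate 2) and in 6 of 10 in the second (at most 0.110, without NK cell-depleted replicate 3). *Tlr3*, a sensor of double-stranded RNA that signals through TRIF and not MyD88, was 17.3 ± 2.12 CPM (SD, n = 4) in COX-competent tumors and 24.6 ± 5.47 (SD, n = 3) in COX-deficient tumors, with a log2 fold change of 0.46 (adjusted p = 0.0581, edgeR).

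Around the receptors, 99 genes of the TLR pathway were followed in 6 lists, with these 3 TLR genes among them, and 92 could be tested. In COX-deficient against COX-competent tumors 33 rose and 15 fell, with a median log2 fold change of 0.19. Over all genes tested 23.1% were called in either direction and 12.1% as higher, and 1597 of the 14550 were called as lower. Of the 17 accessory and trafficking genes 7 rose and the other 10 did not pass, and the list's median was 0.17. *Ly86* (2.08) and *Cd180* (1.87), which encode the MD-1 and RP105 proteins that form a TLR4-like complex, were among those that rose on the log2 scale. *Unc93b1*, which carries endosomal TLRs out of the endoplasmic reticulum, rose from 84.2 ± 8.81 CPM (SD, n = 4) to 225 ± 60.5 (SD, n = 3), a log2 fold change of 1.36 (adjusted p = 0.000281, edgeR). The TLR4 partners *Cd14* (-0.33) and *Ly96* (0.17) did not pass. Of 29 tested adaptors, kinases and transcription factors 12 rose and 1, the kinase *Map3k7*, fell, with a median of 0.37. *Irf7* (1.84) and *Irf5* (1.39), transcription factors downstream of MyD88, were among those that rose, while the adaptors *Tirap* (-0.02) and *Ticam1* (0.42) did not pass.

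For the lists that follow, 1763 of all 14550 genes tested were called as higher and 1597 as lower in this comparison. Of 14 inhibitors 4 rose and 1 fell, with a median of 0.24. *Irak3*, a kinase relative that restrains IRAK signaling, rose by 0.88 on the log2 scale (adjusted p = 0.0366, edgeR), a call lost in 4 of 10 fits that left out a library (at most 0.138, without COX-deficient replicate 2) and in 2 of 10 others (at most 0.0741), and *Tnfaip3*, which encodes A20, did not pass (0.73, adjusted p = 0.216). The gene that fell, *Il1rl1* (-2.32), encodes ST2, the receptor of IL-33, known from mast cells and type 2 lymphocytes. The 21 tested inducible target genes went in both directions, with 8 higher, 7 lower and a median of 0.00. *Ccl5* (2.85) and *Il12b* (2.52) rose most, and *Il6* (-3.39), *Cxcl1* (-2.65), *Lcn2* (-2.33) and *Saa3* (-2.23) fell most on the log2 scale. Of the 26 target genes, 11 belong to inflammatory lists that the study made from tumors of this model, so their directions are not independent evidence. Of 8 genes for proposed endogenous TLR ligands 6 fell and the other 2 did not pass, with a median of -0.81. *S100a9* (-2.70) and *S100a8* (-2.64), which encode the subunits of calprotectin and are abundant in neutrophils, fell most.

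With against without NK cells, 2 of the 92 pathway genes were higher, *Ccl5* (2.16, adjusted p = 0.00221, edgeR) and *Ccl4* (1.35, adjusted p = 0.0205), and 2 were lower, *S100a8* (-1.26, adjusted p = 0.00237) and *S100a9* (-1.14, adjusted p = 0.0116). Over all genes tested 1.44% were called in either direction. The chemokines *Ccl4* and *Ccl5* are also made by NK cells. The call of *Ccl4* was lost in 3 of 10 fits that left out a library (up to 0.106 when NK cell-depleted replicate 2 was dropped) and in 4 of 10 others, among them the first code alone (0.0937), and that of *S100a9* in 2 (at most 0.0754, without COX-deficient replicate 2). *Unc93b1* had a log2 fold change of 0.49 here (adjusted p = 0.288, edgeR). In NK cell-depleted against COX-competent tumors 12.5% of all genes tested were called, and 6.63% as higher, with 854 of the 14550 called as lower. Of the 92 pathway genes, 14 rose and 16 fell. Those with the largest changes on the log2 scale were *Tlr11*, *Sigirr* (2.16), an inhibitor of TLR and IL-1 receptor signaling, and *Ly86* (1.42), which rose, and *Marco* (-2.28), *Il1rl1* (-2.21), *Il6* (-2.13), *Il1b* (-2.05), *Saa3* (-1.79), *Cxcl1* (-1.69) and *S100a9* (-1.56), which fell. Of these, *Il6*, *Cxcl1* and *Marco* lost their calls in 2, 3 and 2 of the fits that left out a library (up to 0.0699 and 0.0724 without NK cell-depleted replicate 2, and 0.0650 without replicate 1). *Cd14* was also called as lower (-0.50, adjusted p = 0.0389, edgeR), but not in 7 of 10 such fits (at most 0.148, without NK cell-depleted replicate 2) nor for the first code alone (0.111). *Sigirr*, *Il1b* and *Marco* were not named above for COX-deficient tumors. The mean of *Sigirr* was 4.04 CPM in COX-competent, 14.6 in COX-deficient and 18.5 in NK cell-depleted tumors. In the same order *Il1b* had 90.3, 21.1 and 22.3 CPM and *Marco* 4.24, 2.37 and 0.876.

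**Figure D4:**
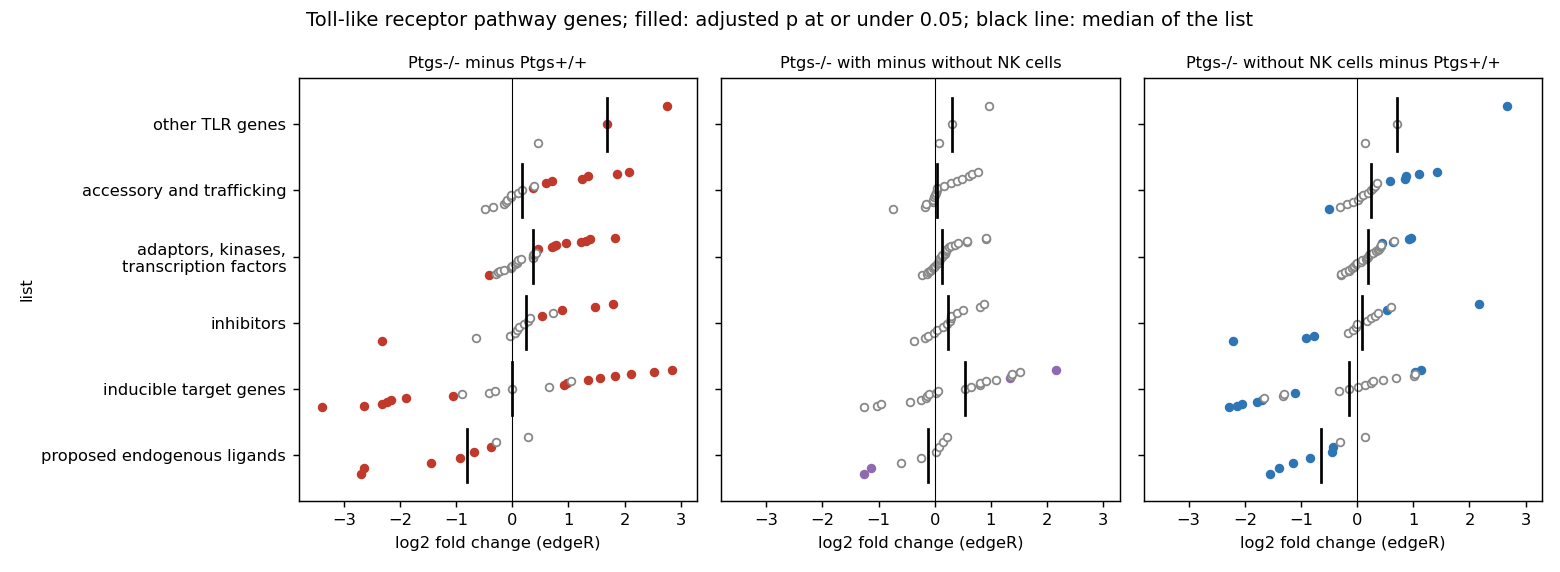
Each point is 1 pathway gene, placed by its log2 fold change from edgeR on the horizontal axis and by its list on the vertical axis, with 1 panel for each comparison; filled points passed an adjusted p of 0.05 and black lines are list medians. In *Ptgs*-/- minus *Ptgs*+/+ tumors the ligand list has its median at -0.81 and the target genes spread on both sides of 0, and only 4 points are filled in the comparison with minus without NK cells.

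Marker genes of several cell types also differed between the groups, some higher and some lower. Of all genes tested, 23.1% were called in COX-deficient against COX-competent tumors, and 12.1% as higher, with 1597 of the 14550 called as lower. In COX-deficient against COX-competent tumors 6 of 6 pan-leukocyte markers rose, with a median log2 fold change of 1.10, and their summed level was 816 to 909 CPM in COX-competent libraries, 1329 to 2057 in COX-deficient libraries and 1187 to 1363 with NK cells depleted. The lowest of the COX-deficient libraries was replicate 1, as for 8 of the 9 genes above. This was not particular to leukocytes. Replicate 1 was also lowest for the summed melanocytic (51.9 CPM), keratinocyte (19.39), endothelial (100.7) and neutrophil (89.81) markers, but not for fibroblast or skeletal muscle markers. Why it was low was not tested. Of 12 macrophage markers 9 rose and 3 did not pass (median 0.73, summed level 2541 to 3188 CPM in COX-competent libraries and 4117 to 6211 in COX-deficient libraries). Of 6 monocyte markers 5 rose (median 1.65, 455 to 621 against 1122 to 1965 CPM), as did 7 of 8 markers of type 1 dendritic cells (median 1.31, 124 to 133 against 278 to 408 CPM). Of 9 tested neutrophil markers 5 fell and 4 did not pass (median -1.40, 311 to 492 against 89.8 to 152 CPM). Among other cells, 7 of 8 tested T cell markers, 7 of 8 tested NK cell markers, 3 of 5 fibroblast markers and 3 of 8 skeletal muscle markers (median 1.79, 22.2 to 176 against 116 to 389 CPM) rose, and 2 of 4 endothelial markers fell. The part of these cells in the TLR differences was not tested.

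For the cells known for TLR7 and TLR9, 4 of 7 markers of plasmacytoid dendritic cells rose in COX-deficient tumors, *Siglech*, *Klk1*, *Spib* and *Cox6a2*, and the summed level overlapped (36.3 to 113 against 25.5 to 100.2 CPM). *Cox6a2* is also a gene of skeletal muscle, and its mean of 2.78, 7.86 and 45.5 CPM in COX-competent, COX-deficient and NK cell-depleted tumors was in the same order as that of the muscle gene *Ckm* (2.21, 9.33 and 115.1 CPM). *Ly6d*, which other cells express too, reached 106 CPM in a library and made up much of the sum, so that neither the count nor the sum stands for these cells alone. Of 6 B cell markers only 2 were tested. Of these, 1 rose in COX-deficient and 1 in NK cell-depleted tumors, each against COX-competent tumors, and 0 passed with against without NK cells. *Cd79a* was at 0 in 8 of the 10 libraries, while *Cd79b* had 9 to 43 counts. With against without NK cells, all 8 tested NK cell markers were higher (89.9 to 197 against 8.56 to 9.63 CPM), and all 8 skeletal muscle markers were lower (116 to 389 against 2418 to 5731 CPM). Of the markers of cells that carry TLRs, 2 of 6 monocyte markers and 1 of 6 pan-leukocyte markers were called as higher with NK cells. In edgeR 0 of 12 macrophage markers passed (3945 to 4260 CPM in NK cell-depleted libraries). The same held for 0 of 8 markers of type 1 dendritic cells and 0 of 9 tested neutrophil markers, and 1 of 7 markers of plasmacytoid dendritic cells was lower. In NK cell-depleted against COX-competent tumors all 8 muscle markers rose (median 5.52, 2418 to 5731 against 22.2 to 176 CPM), as did 4 of 6 monocyte markers (940 to 1184 against 455 to 621 CPM), 6 of 8 markers of type 1 dendritic cells (242 to 275 against 124 to 133 CPM), 3 of 6 pan-leukocyte markers and 3 of 12 macrophage markers, and 4 of 9 neutrophil markers fell and 1 rose. Over all genes tested, 1.44% were called in either direction with against without NK cells. In NK cell-depleted against COX-competent tumors 12.5% were, and 6.63% as higher, with 854 of the 14550 called as lower. Muscle RNA and NK cell depletion cannot be told apart in these libraries, and the part of the other cells in the TLR differences was not tested.

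Genes whose levels followed those of each tested gene most closely were named as a description, by Pearson's r of log2(CPM + 1) over the 10 libraries among genes of at least 10 CPM, all of which share the library depth and the 3 groups. For *Tlr1* these were *Irf5* (r = 0.985) and *Prkcd* (0.979), and for *Tlr7* they were *Nfatc2* (0.986) and *Unc93b1* (0.983). With deviations from the group means in place of levels, r was 0.909 for *Tlr1* with *Irf5* and 0.972 with *Prkcd*. For *Tlr7* it was 0.953 with *Nfatc2* and 0.876 with *Unc93b1*, and for the pairs below 0.918 to 0.964. *Tlr2* lay closest to *Dop1b* (0.977) and *Sh3tc1* (0.975), and *Tlr6* to *Tfeb* (0.978) and *Atp2a3* (0.971). For *Myd88* they were *Dpp3* (0.973) and *Sgk3* (0.956), for *Tlr5* *Tgs1* (0.945) and *Ist1* (0.935), for *Tlr13* *Cbr3* (0.915) and *Mmp2* (0.913), and for *Tlr4* *Slc25a38* (0.894) and *Nkap* (0.889). All were picked as the highest among 9092 or 9093 genes searched over 10 libraries, so a high r can come from the search alone.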

How the data were processed

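Whole tumors were profiled by QuantSeq 3′ RNA-seq, in 10 libraries. The authors trimmed reads (BBDUK on the first 12 bases, fqtrim, cutadapt), aligned them with STAR to GRCm38 and used featureCounts with Ensembl version 86 to make the deposited counts, which are raw whole-number counts per gene and library. The labels also name bcl2fastq, edgeR and mm10. Tool versions, strand setting, treatment of reads that map to several places and molecular identifiers are not given in the sources used here. Without molecular identifiers, the detection floor of 3 counts covers counting error only. No deposited column held anything but 1 of the 10 libraries. The paper's methods give another antibody schedule than the labels, which are followed here.

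Identifiers were named from GENCODE M21 (45143 of 45706 matched, 563 did not). Genes passing filterByExpr (14550) were fitted in 1 model of the 3 groups with TMM scaling (edgeR 4.0.16, R 4.3.3), and p-values came from its quasi-likelihood test, adjusted by Benjamini-Hochberg over all genes tested. The SE of a log2 fold change is its absolute value divided by the square root of the F statistic. The fit was checked on simulated counts. Level, SD and share were computed from CPM by total count, with python 3.11.15 and pandas 2.3.3. Alternatives were DESeq2 1.42.0, voom from limma 3.58.1, other scaling, filters and tests, a minimum log2 fold change of 1.5, other sets of libraries, and terms for the experiment code or the label number. Replicates of a group differed by more than sampling noise (chi-square per degree of freedom 7.41 to 30.1), so that no library was counted as a copy.

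The members and the lists of genes were chosen with earlier results of these data known. From the pathway lists, the genes named are up to 10 called genes with the largest absolute log2 fold change in each comparison, with *Cd14*, *Ly96*, *Unc93b1*, *Tirap*, *Ticam1*, *Irak3* and *Tnfaip3* whatever their values. *Ly86*, *Cd180*, *Irf5*, *Irf7* and *Map3k7* in the comparison by COX, the levels of *Sigirr*, *Il1b* and *Marco* in COX-deficient tumors, and the single marker genes of plasmacytoid dendritic cells, B cells and muscle, were named after their values were seen. Promoter sequences are from RefSeq. A comparison of proteins was not run.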

Additional observations from a re-analysis of the deposited data

Results flagged for a closer look

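In COX-competent tumors the *Tlr9* level of replicate 1 was 0.1558 CPM, from 2 counts, and the other 3 libraries were at 0. It was marked because its gap to the next value took up the whole range of the group, past Dixon's limit for 4 samples. This value is under the floor of 3 counts. With the other 3 libraries at 0, the gap fills the range whatever the count, so the mark was fixed by the zeros. In all, 10 groups of 4 libraries were examined, and chance marks about 1 in 20, a rate that does not cover such counts.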

How the results depend on the processing

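Of the 4 members called in COX-deficient against COX-competent tumors, 2 were called among libraries of the first experiment code, where fewer libraries are compared, and 1 with a minimum log2 fold change of 1.5. Leaving out 1 library gave 2 to 4 calls, with 2 without COX-competent replicate 2, COX-deficient replicate 2 or COX-deficient replicate 3. With against without NK cells 0 members were called under each alternative. Of the 3 called in NK cell-depleted against COX-competent tumors, 1 was called among libraries of the first code and 0 with the minimum fold change, and leaving out 1 library gave 1 to 3, with 1 whichever NK cell-depleted library was left out. Over all tested members, comparisons and alternative fits, 432 log2 fold changes kept their direction and side of the threshold, 23 lost their call and 25 changed sign. The minimum log2 fold change is not a separate fit and is not among these.

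None of the values that changed sign had passed the test. In COX-deficient against COX-competent tumors *Tlr4* (-0.02 on the log2 scale) was 0.03506 with library size alone, 0.0002514 without a filter on low counts, 0.02265 with a minimum of 10 counts per library and 0.2694 for the first code alone. Leaving out 1 library gave *Tlr4* -0.09972 to 0.1373, *Tlr5* -0.1436 to 0.4785 and *Tlr13* -0.1192 to 0.106. With against without NK cells *Tlr4* was 0.09254 for the first code alone, and *Tlr6* was 0.007945 with DESeq2, 0.02144 with library size alone and 0.0185 with a minimum of 10 counts per library. Leaving out 1 library gave *Tlr4* -0.1738 to 0.09256, *Tlr6* -0.1605 to 0.2107 and *Tlr13* -0.08541 to 0.1384. In NK cell-depleted against COX-competent tumors *Tlr13* was 0.00208 with library size alone, and leaving out 1 library gave *Tlr13* -0.07093 to 0.01332 and *Tlr4* -0.03557 to 0.1644. The cause of these changes was not tested.

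Of the 48 pathway genes called in COX-deficient against COX-competent tumors 20 passed the minimum fold change, and 36 to 52 were called with 1 library left out. With against without NK cells 4 were called, 8 with DESeq2, 8 without a filter, 8 with the likelihood ratio test and 1 with the minimum fold change, and 2 to 7 with 1 library left out (2 without NK cell-depleted replicate 2 and 7 without COX-deficient replicate 1). In NK cell-depleted against COX-competent tumors 30 were called, 9 with the minimum fold change, and 17 to 33 with 1 library left out (17 whichever NK cell-depleted library was left out and 19 without COX-competent replicate 2). Of the marker genes, 60, 20 and 44 were called in the 3 comparisons. The minimum fold change gave 31 in the first and 21 in the last. A minimum of 10 counts in every library, which leaves fewer genes to test, gave 5 with against without NK cells and 29 in the last, and the first code alone gave 13 with against without NK cells. Leaving out 1 library gave 51 to 65, 12 to 30 and 26 to 52, with 12 without COX-deficient replicate 2 or NK cell-depleted replicate 3, 13 without COX-deficient replicate 3 and 26 without NK cell-depleted replicate 1. Over all genes with against without NK cells, 75 were called higher and 134 lower, and with DESeq2 209 and 174.

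With the label number as a replicate block the members called were 4, 0 and 3, the pathway genes 51, 4 and 28 and the marker genes 63, 17 and 43, and no member lost or gained a call. Both this fit and the following check matched numbers across experiment codes. Deviations from the group means of same-numbered libraries correlated at 0.0818 and 0.0429 between COX-deficient and NK cell-depleted tumors of the first code, and at -0.00313 across codes. Between COX-competent and other tumors they correlated at -0.223 to 0.387 within the first code and as low as -0.296 across codes. The numbers were not taken to pair the tumors, and a block within the first code alone was not fitted. *Tlr8* and *Tlr9* were too low to test, so that depth limits what can be said of them.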
